A study of Mus musculus with 8 samples.

Results

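The cytosolic ribosomal protein genes are the protein parts list of the ribosome outside the mitochondria. They were taken from the count table by name: every row named Rpl or Rps followed by a number, with an optional a, x, l or y, plus the stalk genes Rplp0, Rplp1 and Rplp2 and the laminin receptor gene Rpsa. The rule found 78 of 16647 gene rows, 31 for the small (40S) subunit and 47 for the large (60S) subunit. Of these, 77 were abundant enough to be tested. Rpl10l, a retrogene copy of Rpl10, was not, with counts of 1, 0, 1 and 0 in the 4 libraries.

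Ribosomes need their proteins in fixed proportions, and a growing cell spends much of its transcription and translation on making them. Their mRNAs are short and abundant, and most begin with a C followed by a run of pyrimidines (C or T), the 5' terminal oligopyrimidine (TOP) element, through which the mTOR kinase pathway adjusts the translation of the whole set together. A few members have roles apart from the ribosome: Rpl5 and Rpl11 bind the 5S ribosomal RNA and, when free, the p53 regulator Mdm2, and Rps6 is the classical substrate of the S6 kinases. Mammalian genomes hold many processed pseudogenes of these genes, and a few members have an expressed paralogue.

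The cells were Tri-PyMT cells, a mouse mammary tumour model whose tissue label reads primary metastatic breast tumor. The mouse of origin carried 3 transgenes, MMTV-PyMT, Fsp1-cre and Rosa26mT/mG. In this mouse a viral oncogene is driven by a mammary promoter, Cre by the promoter of Fsp1 (S100a4), and the Rosa26 reporter turns from red to green fluorescence in cells that have expressed Cre. The cells grew in DMEM containing 10% FBS and were sorted by flow cytometry into an RFP+ and a GFP+ population, and then profiled by Drop-seq, in which single cells are captured in droplets with barcoded beads and polyA RNA is read out per cell. GEO lists 8 samples: 2 libraries of each population, each of them sequenced on 2 lanes. The count table pools the lanes, so each population had n = 2 libraries, and no label says that they came from separate cultures, so the p-values below rest on a spread that may be only technical.

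The 7390 cells used (at least 500 counts, under 20% mitochondrially encoded) numbered 1597 to 1998 per library, with 2550319 to 3081009 counts per library and a median of 1166 to 1358 counts per cell. No cell barcode was shared between libraries. The reporter rows went against the sort labels. The green reporter row (CUSTOM_GFP) had 612 and 590 CPM (the counts of a gene relative to all counts of its library) in the RFP+-labelled libraries and 99.7 and 104 CPM in the GFP+-labelled ones. The red reporter row (CUSTOM_RFP) had 132 and 137 CPM against 2943 and 3053 CPM. Every direction below is therefore that of the GFP+-labelled libraries over the RFP+-labelled ones. Of the epithelial genes listed, all 8 tested were lower in the GFP+-labelled libraries (median log2 fold -1.34), and all 6 mesenchymal genes tested were higher (median 0.86). Markers of immune, endothelial and red blood cells stayed at or near 0, with at most 17 counts per list and library. Fibroblast markers summed to 17 and 10 counts in the RFP+-labelled libraries and 117 and 132 in the GFP+-labelled ones. Most of these were Col1a2 (10, 4, 92 and 113 counts), Col1a1 had 0, 0, 1 and 4, and their part in the results below was not tested.

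Since the TOP element sits at the first bases of the mRNA, the start of the gene is shown for the members whose level moved furthest from the rest of the family, and for 1 pair of paralogues. Each line gives 15 bases before and 15 bases from the start that RefSeq annotates on GRCm38.p6, 5' to 3' on the strand of the gene. The first transcribed base is thus the 16th letter. Capitals mark the longest stretch made of a C and at least 4 pyrimidines after it, read from a C within 5 bases of that start. For genes with several annotated starts, the one with the longest such stretch is shown. Rpl35a and Rps19 had 3 starts, and Rpl34 and Rpl22 had 2. Pyrimidines further upstream stay in lower case, so in Rpl34, Rpl35 and Rpl7a the whole run is longer than the capitals. Members with higher values relative to the family in the GFP+-labelled libraries come first:
Rpl15 (chr14:18270972-18271001, minus strand): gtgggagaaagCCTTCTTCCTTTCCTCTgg
Rpl34 (chr3:130730323-130730352, minus strand): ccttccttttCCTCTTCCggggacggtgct
Rpl35 (chr2:39005117-39005146, minus strand): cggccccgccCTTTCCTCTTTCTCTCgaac
Rpl35a (chr16:33056467-33056496, plus strand): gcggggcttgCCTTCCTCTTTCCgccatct
Rpl27a (chr7:109519180-109519209, plus strand): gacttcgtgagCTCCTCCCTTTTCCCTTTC
Rps6 (chr4:86857353-86857382, minus strand): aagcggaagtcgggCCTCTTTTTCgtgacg
Members with lower values relative to the family follow, where Rps19 had 3 annotated starts:
Rplp0 (chr5:115559452-115559481, plus strand): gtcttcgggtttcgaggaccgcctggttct
Rps19 (chr7:24884661-24884690, plus strand): ccgcacggtgagtgagggctctgggtcgcg
Rps10 (chr17:27635230-27635259, minus strand): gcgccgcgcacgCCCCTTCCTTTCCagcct
Rpl27 (chr11:101442230-101442259, plus strand): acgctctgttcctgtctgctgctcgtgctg
Rpl7a (chr2:26910792-26910821, plus strand): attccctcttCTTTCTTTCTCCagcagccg
Rpl39 (chrX:37085208-37085237, minus strand): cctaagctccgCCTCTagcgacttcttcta
Rps7 (chr12:28635939-28635968, minus strand): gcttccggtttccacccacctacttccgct
The pair of paralogues was Rpl22 and Rpl22l1:
Rpl22 (chr4:152324421-152324450, plus strand): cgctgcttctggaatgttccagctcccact
Rpl22l1 (chr3:28805493-28805522, plus strand): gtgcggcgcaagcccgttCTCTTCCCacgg

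Promoter sequences were matched for 58 of the 78 members, and a gene with several annotated starts was counted if any of them matched. A pyrimidine stretch of this kind, read from a C exactly at the annotated start and whatever stands before it, was found in 13 (22.4%), against 3.13% of the 5757 tested genes that were matched, and read from a C within 5 bases of it in 28 (48.3%) against 23.6%. In the 300 bases from 250 before to 50 after the start, on either strand, CCGGAAG, the core bound by ETS family factors, was found in 24 members (41.4%) against 24.2% of tested genes. The letters AAGATGGC were found in 5 (8.62%) against 6.24%, and TATAAA in 6 (10.3%) against 8.41%. These are matches of letters, not binding sites. In the lines above, all 6 members with higher values hold a run, as do 3 of the 7 with lower values. All members described below as called higher and called lower relative to the family held a run within 5 bases of the start in 9 of 18 and 8 of 16 matched members.

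As a share of all counts, the family took 17.5% and 17.9% in the RFP+-labelled libraries and 16.2% and 16.5% in the GFP+-labelled ones. The mean was 17.7% ± 0.30 (SD, n = 2) and 16.3% ± 0.25 (SD, n = 2), a difference of -1.39 percentage points. The populations did not overlap, with an exact two-sided permutation p of 0.333, which is the smallest that 2 against 2 libraries can give, so this test cannot reach 0.05. Mitochondrially encoded counts, a common measure of RNA quality, were also lower in the GFP+-labelled libraries, at 0.403% and 0.378% of counts against 0.664% and 0.644%, and their part in the family share was not tested. Small subunit genes took 7.80%, 8.02%, 7.08% and 7.31% of counts, in the order of libraries 1 and 2 labelled RFP+ and then 1 and 2 labelled GFP+, the order used throughout. Large subunit genes took 9.71%, 9.91%, 9.07% and 9.19%. Both subunits were lower in the GFP+-labelled libraries. The log2 ratio of summed small to summed large subunit counts was -0.32, -0.31, -0.36 and -0.33, a difference of -0.03 between populations (exact permutation p = 0.333). As a mean of log2 CPM over members, in which every gene weighs the same, small minus large subunit was 0.76, 0.78, 0.65 and 0.71, a larger difference of -0.09 (exact permutation p = 0.333). Neither measure overlapped between populations.

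Gene by gene, the summed counts of each library were compared with edgeR's quasi-likelihood test, and a gene was called at a Benjamini-Hochberg adjusted p under 0.05 over 7595 genes. Of the 77 members tested, 9 were called higher, 37 lower and 31 not called, where 15.7% of all genes tested were called higher and 14.9% lower. The members' median log2 fold was -0.12 against 0.00 over all genes, and it turned to 0.05 when the fit held offsets for transcript length and GC content, with 24 members then called higher and 15 lower (11.9% and 12.1% of all genes). These offsets were a trend fitted to the log2 folds of this same comparison, members included. Without offsets, 2 of the 31 small subunit genes were called higher and 17 lower, with a median of -0.17. Of the 46 large subunit genes 7 were called higher and 20 lower, with a median of -0.07. By CPM alone, both GFP+-labelled libraries lay below both RFP+-labelled ones for 44 members and above them for 14, against 30.7% and 34.3% of all genes tested. In libraries summed over cells, fewer cells with high levels and less RNA per cell cannot be told apart.

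Other short genes had a median like that of the family. Across 7140 tested genes with a coding length, log2 folds were higher at greater length (Spearman's rho 0.35, over genes, which are not independent replicates), and the members' coding sequences are short, with a median of 453 bases. The 1722 other genes with coding lengths between the members' 10th and 90th percentiles (266 to 802 bases) had a median log2 fold of -0.13, with 25.8% called lower and 8.01% called higher. With offsets for coding length and GC content, a setting chosen after seeing the data, the medians were -0.02 for members and -0.02 for those other genes. The trend behind the offsets was estimated from these same folds. It moves the median of genes of any given length towards that of all genes by construction, so these medians are no independent check. The members' calls then split into 20 higher and 21 lower, against 10.5% and 11.7% of all genes tested. The median of all genes moved by no more than 0.02 between these fits, and DESeq2's Wald test called 3 members higher (Rpl29, Rpl34 and Rpl35) and 29 lower, where it called 9.66% of all genes (4.79% higher and 4.87% lower).

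To ask which members moved apart from the others, the summed counts of the family were used as the library size. In this fit 22 members were called higher, 18 lower and 37 not called, against 25.8% and 7.23% of all genes tested. The median log2 fold over all genes was 0.13 here, because the scale follows the family. Small subunit genes made up 7 of those called higher, among them Rps6, Rps4x, Rps23, Rps15, Rps16 and Rps27a. The 15 large subunit genes called higher were Rpl29, Rpl15, Rpl34, Rpl35, Rpl35a, Rpl27a, Rpl21, Rpl37a, Rpl10, Rpl36a, Rpl19, Rpl41, Rpl37, Rpl23 and Rplp2. The 8 small subunit genes called lower were Rps19, Rps10, Rps7, Rps26, Rps3, Rps12, Rps27l and Rps9, and the 10 large subunit genes were Rplp0, Rpl27, Rpl7a, Rpl39, Rpl32, Rpl18, Rpl11, Rpl5, Rpl38 and Rpl7. Departures upward reached 1.23 on the log2 scale and departures downward -0.20. Without the filter on low counts the same fit called 2 members higher, among them Rpl21, and 0 lower, with 21 and 20 at an unadjusted p under 0.05. The folds of members still reached 1.23 and -0.20 there. The median prior degrees of freedom, the weight edgeR gives to the spread pooled over genes, were 2.22 in place of 43.9. Their part in the calls was not tested, and the share of all genes called in that fit is not given. DESeq2 on the same scale called 14 higher and 9 lower (10.4% and 2.26% of all genes). Offsets centred on the members, chosen after seeing the data, gave 25 higher and 19 lower with transcript length and GC (10.4% and 12% of all genes), and 22 and 21 with coding length and GC (10.8% and 9.86%).

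**Figure D1:**
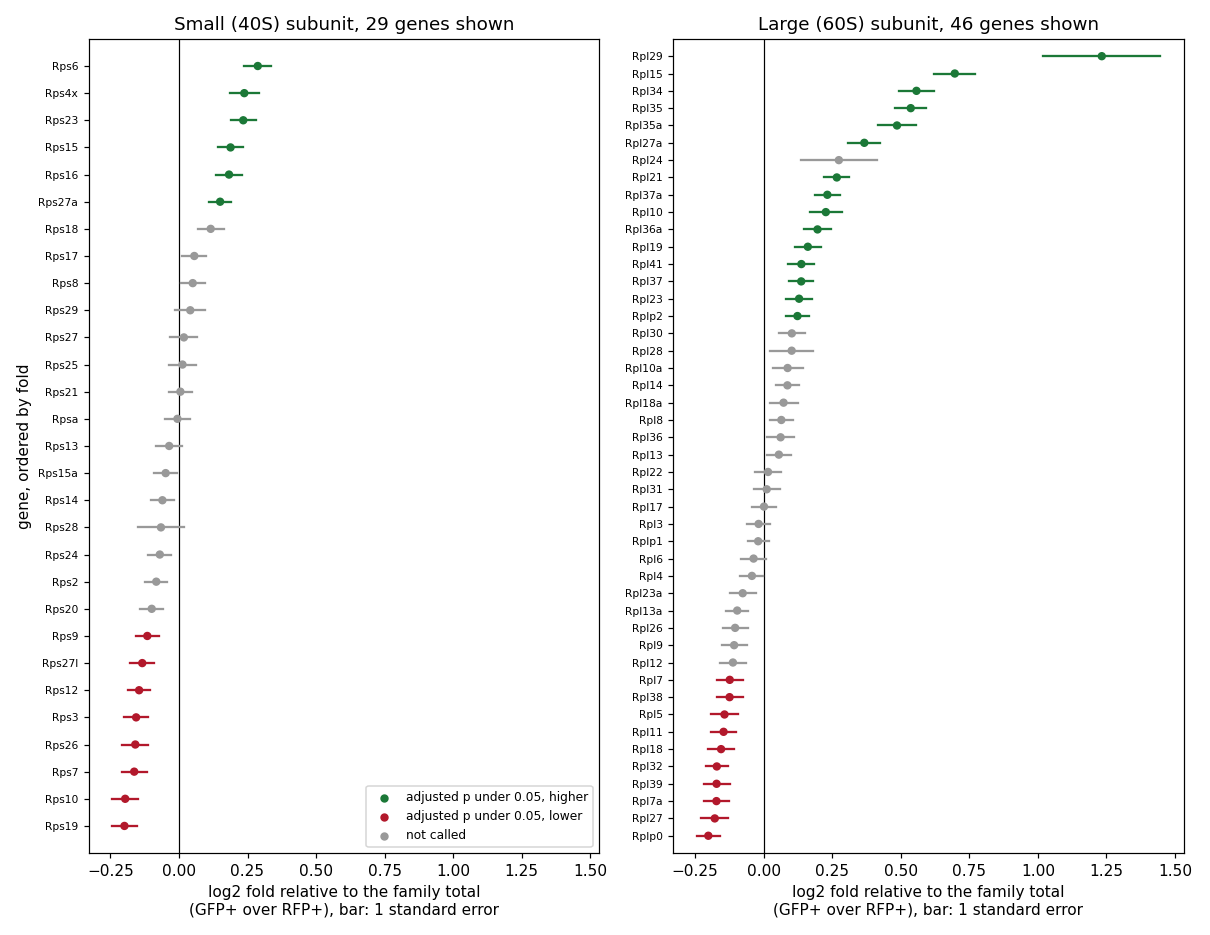
Log2 fold of 75 tested members relative to the family total (x axis, GFP+-labelled libraries over RFP+, edgeR fit) for small subunit genes (left panel) and large subunit genes (right panel), ordered by fold on the y axis, with bars of 1 standard error and colours for the call at an adjusted p under 0.05. The members called higher reach 1.23 (Rpl29), and those called lower go no further than -0.20 (Rplp0).

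Rpl29, a large subunit protein also known as a heparin-binding protein (chr9:106429454-106431568), had the largest departure on low counts. Its levels were 14.3, 18.7, 46.6 and 24.7 CPM. Both GFP+-labelled libraries were above both RFP+-labelled ones, and the first was far above the second. The log2 fold was 1.10 ± 0.21 (SE) over all genes (edgeR adjusted p = 8.1e-05) and 1.23 ± 0.21 relative to the family (edgeR adjusted p = 1.1e-05). Without GFP+-labelled library 1 the first was 0.58 and no longer called (edgeR adjusted p = 0.0814), and the second was 0.69 and still called. It is named outside the rule for named genes, which asks for 50 CPM, for being the member furthest from the rest.

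Rpl15, a large subunit protein whose gene is mutated in some families with Diamond-Blackfan anaemia, had 476, 470, 812 and 599 CPM. The populations did not overlap, and the GFP+-labelled libraries also differed from each other. Its log2 fold relative to the family was 0.70 ± 0.08 (edgeR adjusted p = 3.5e-10), and it ranged from 0.44 to 0.91 when 1 library was left out.

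Rpl34 followed with 486, 533, 744 and 635 CPM, a log2 fold relative to the family of 0.56 ± 0.06 (edgeR adjusted p = 1.3e-09). Rpl35, which sits at the exit of the peptide tunnel, had 956, 1037, 1434 and 1226 CPM, with 0.54 ± 0.06 (edgeR adjusted p = 1.7e-10). Rpl35a, another gene mutated in Diamond-Blackfan anaemia, had 370, 439, 560 and 482 CPM, with 0.49 ± 0.07 (edgeR adjusted p = 2.4e-07). In all of these, GFP+-labelled library 1 was the highest, GFP+-labelled library 2 next, and the populations did not overlap.

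Rpl27a had 925, 933, 1203 and 1002 CPM and a log2 fold of 0.37 ± 0.06 relative to the family (edgeR adjusted p = 2.6e-06), which DESeq2 did not call. Over all genes its log2 fold of 0.23 lost its call without GFP+-labelled library 1 (0.10, edgeR adjusted p = 0.221). Rps6, the S6 kinase substrate, had 1346, 1312, 1536 and 1452 CPM, and its log2 fold relative to the family was 0.29 ± 0.05 (edgeR adjusted p = 8.6e-06). Rpl21 (chr5:146832890-146837032) had 1689, 1755, 1886 and 1932 CPM, with 0.27 ± 0.05 relative to the family (edgeR adjusted p = 7.6e-06). In both genes the populations did not overlap, and the gap between GFP+-labelled libraries was smaller than in Rpl15.

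Members furthest below the rest included a stalk protein and parts of both subunits. Rplp0, the base of the ribosomal stalk that recruits translation factors, had 3456, 3381, 2757 and 2722 CPM. Its log2 fold was -0.33 ± 0.05 over all genes (edgeR adjusted p = 3.7e-07) and -0.20 ± 0.04 relative to the family (edgeR adjusted p = 0.00023). Rps19, the gene most often mutated in Diamond-Blackfan anaemia, had 3114, 3069, 2373 and 2594 CPM, and its log2 fold relative to the family was -0.20 ± 0.04 (edgeR adjusted p = 0.0004). Both had populations that did not overlap and a spread within populations below the gap between them.

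Rps10, near the entry of the mRNA channel, had 2060, 2142, 1583 and 1799 CPM and a log2 fold of -0.20 ± 0.05 relative to the family (edgeR adjusted p = 0.0012). Its call was lost without GFP+-labelled library 1 (edgeR adjusted p = 0.121) and with either length offset. Rpl27 had 1394, 1440, 1107 and 1201 CPM, and its log2 fold of -0.18 ± 0.05 (edgeR adjusted p = 0.0038) lost its call without GFP+-labelled library 1 (edgeR adjusted p = 0.102). Rpl7a had 1836, 1924, 1520 and 1555 CPM, with -0.17 ± 0.05 (edgeR adjusted p = 0.0029). Rpl32 (chr6:115805505-115808747) had 5148, 5168, 4122 and 4324 CPM, with -0.17 ± 0.04 (edgeR adjusted p = 0.00076). Rpl39, a very short protein lining the peptide tunnel, had 1673, 1740, 1344 and 1449 CPM and -0.17 ± 0.05 (edgeR adjusted p = 0.0039). Rps7 had 2187, 2186, 1744 and 1855 CPM and -0.16 ± 0.05 (edgeR adjusted p = 0.0042). The call of Rpl39 was lost without GFP+-labelled library 1, without RFP+-labelled library 2 and on thinned cells, and that of Rps7 without GFP+-labelled library 1 or RFP+-labelled library 1. All 6 were lower in both GFP+-labelled libraries than in either RFP+-labelled one.

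**Figure D2:**
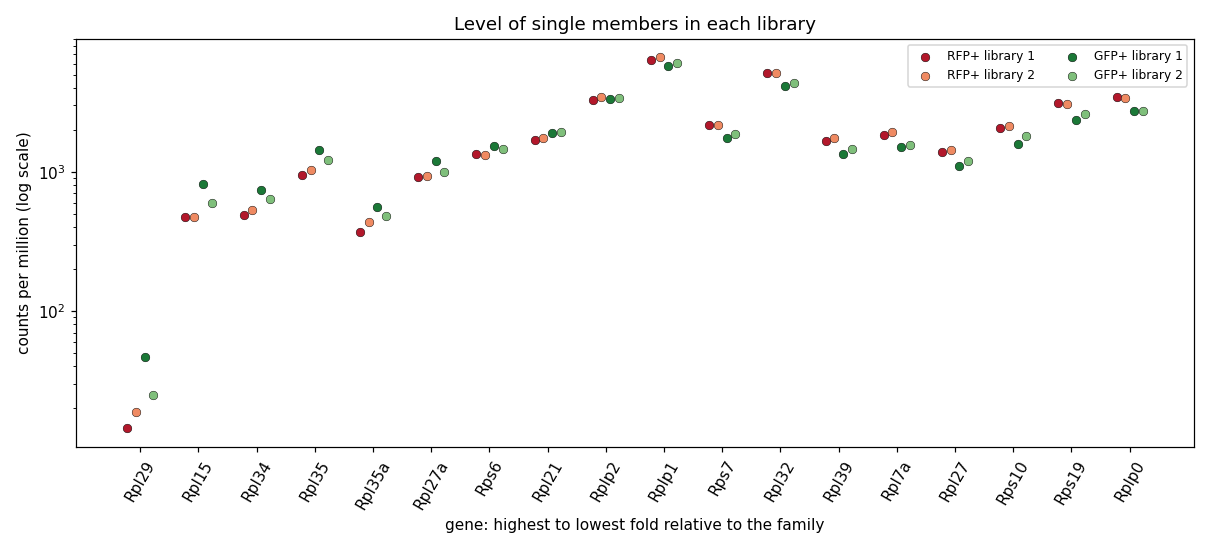
CPM (y axis, log scale) of 18 members in each library (points, 1 colour per library), ordered on the x axis from the highest to the lowest fold relative to the family. In the 8 genes on the left both GFP+-labelled libraries lie above both RFP+-labelled ones, and in the 8 on the right below them, whereas Rplp2 overlaps and Rplp1 lies lower in the GFP+-labelled libraries by 0.15 on the log2 scale, a direction that turns with length offsets.

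A difference between the 2 GFP+-labelled libraries moved with these departures. Library 1 exceeded library 2 in CPM for 14 of the 22 members called higher relative to the family, for 4 of the 18 called lower and for 33 of all 77. Across the 77 members the log2 fold relative to the family had a Spearman's rho of 0.53 with the log2 ratio of library 1 to GFP+-labelled library 2, which share a numerator. The part of this difference in the calls was not tested beyond leaving out each library. With 1 library left out, the members' median log2 fold relative to the family ranged from -0.0038 to 0.017. The largest departure upward then ranged from 0.69 to 1.63 and the largest downward from -0.23 to -0.28. The median absolute log2 difference between libraries of a population was 0.05 for RFP+ and 0.07 for GFP+. Across the members the fold relative to the family had a rho of -0.38 with mean CPM, of -0.12 with coding length and of 0.10 with the share of the transcript's 3' windows that recur in another gene.

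The acidic proteins that pair on Rplp0 in the stalk are Rplp1 and Rplp2. Rplp1, the most abundant member, had 6330, 6642, 5773 and 6015 CPM, a log2 fold of -0.15 ± 0.05 over all genes (edgeR adjusted p = 0.012) that turned to 0.09 and 0.06 with the transcript and coding length offsets, and -0.02 relative to the family. The call over all genes was also lost with DESeq2 and without RFP+-labelled library 2 or GFP+-labelled library 1. Rplp2 had 3274, 3472, 3355 and 3414 CPM, with overlapping populations and 0.12 ± 0.04 relative to the family (edgeR adjusted p = 0.019), a call lost with DESeq2 and on leaving out any library but RFP+-labelled library 2 (edgeR adjusted p up to 0.152). Of the partners of 5S RNA, Rpl5 had 1428, 1448, 1201 and 1199 CPM and Rpl11 3445, 3266, 2694 and 2898 CPM. Both were lower over all genes, by -0.27 ± 0.05 (edgeR adjusted p = 3.3e-05) and -0.28 (edgeR adjusted p = 2.5e-05), although the call of Rpl11 was lost with transcript length offsets (edgeR adjusted p = 0.0529). Rpsa had 2111, 2198, 1986 and 1969 CPM and followed the family total, with -0.01 relative to it. Rps27a, made as a fusion with ubiquitin, had 3204, 3272, 3294 and 3328 CPM, with non-overlapping populations, 0.02 over all genes (not called) and 0.15 ± 0.04 relative to the family (edgeR adjusted p = 0.0042), a call lost with coding length offsets (edgeR adjusted p = 0.313).

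Levels of different genes were compared per kilobase of the principal transcript, the protein-coding model that GENCODE ranks first. Whether counts grow with transcript length in these data, as this measure assumes, was not tested. Rplp1 was highest at 12405 CPM per kb, then Rpl32 at 9072 and Rps21 at 7159. By mean CPM Rplp1 (6190) and Rpl32 (4690) were also the highest, but Rps21 (2821) lay below Rpl13a (4365), Rps2 (4265) and others. Rps21 had 2845, 3017, 2641 and 2780 CPM, where the populations did not overlap and the log2 fold of -0.13 turned to 0.09 with transcript length offsets. The lowest were Rpl29 at 35.6 CPM per kb, Rpl24 at 70.7 and Rpl15 at 306, the last on a long model of 1922 bases. By mean CPM Rpl15 (589) lay above Rps28 (321), Rpl35a (463) and Rpl28 (581). Rpl24 had 45.1, 45.5, 55.0 and 45.9 CPM and was not called (log2 fold 0.14 ± 0.13, edgeR adjusted p = 0.44). By CPM, the next member above Rpl29 and Rpl24 was Rps28, with 285, 398, 317 and 283 CPM in overlapping populations. Rpl28 was among the members whose libraries differed most within a population, with 505, 663, 494 and 661 CPM. Sequence shared with other genes was common: 84.2% of the 50-base windows near the 3' end of Rpl24 and 67.5% of those of Rpl29 occur in another annotated gene. Of the 77 members 76 shared such a window with an annotated pseudogene, with a median of 72.4% of windows shared with any other gene. Where reads of such windows were counted is not known, and the levels and folds of single members are uncertain to that extent.

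Of the paralogue pairs, 4 had both genes tested. Rpl22l1, which can replace the RNA-binding Rpl22 in the large subunit, had 581, 637, 629 and 650 CPM, and Rpl22 had 1717, 1761, 1621 and 1620 CPM. Their log2 ratio was -1.56, -1.47, -1.37 and -1.32, higher in both GFP+-labelled libraries, with a difference of 0.17 ± 0.07 (SE, 95% interval 0.02 to 0.32). Rpl22l1 was 25.9% of the pair's counts in the RFP+-labelled libraries and 28.3% in the GFP+-labelled ones. Neither gene was called over all genes.

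Rps27l, a target of p53 in other systems, had 2154, 2217, 1803 and 1868 CPM and was more abundant than Rps27, with 1134, 1198, 1076 and 1100 CPM. Their log2 ratio was 0.93, 0.89, 0.74 and 0.76, lower in both GFP+-labelled libraries, with a difference of -0.15 ± 0.07 (95% interval -0.29 to -0.01). On cells thinned to 1000 counts the difference was -0.10. Rpl7l1, a relative of Rpl7 that acts in ribosome assembly, had 204, 227, 217 and 205 CPM beside 1994, 1874, 1675 and 1597 CPM of Rpl7, and its log2 ratio of -3.29, -3.04, -2.95 and -2.96 was higher in the GFP+-labelled libraries by 0.21 ± 0.09 (95% interval 0.04 to 0.38). Rpl36al, a retrogene of Rpl36a, had 467, 472, 481 and 450 CPM and Rpl36a 1281, 1411, 1408 and 1433 CPM. Their log2 ratio overlapped between populations (-1.45, -1.58, -1.55 and -1.67), with a difference of -0.09 ± 0.08 (95% interval -0.24 to 0.06). The intervals are not adjusted for the number of pairs. Rpl39l, Rpl3l and Rps4l were not analysed here.

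Ribosomal protein genes that carry other names gave 7 tested genes, 1 called higher and 2 lower, with a median of -0.04, which turned to 0.12 with transcript length offsets (2 called higher and 1 lower). Over all genes tested, 15.7% were called higher and 14.9% lower, or 11.9% and 12.1% with these offsets. Gnb2l1, the gene of the small subunit scaffold Rack1, had 2670, 2576, 2110 and 2079 CPM, with -0.34 ± 0.05 (edgeR adjusted p = 3.9e-07). Rps3a1 had 3017, 2935, 2579 and 2572 CPM, with -0.22 ± 0.05 (edgeR adjusted p = 0.00029), a call lost with transcript length offsets (edgeR adjusted p = 0.0561). Fau, which encodes a ubiquitin-like protein fused to S30, had 1555, 1560, 1508 and 1553 CPM and was not called.

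Pseudogene rows abundant enough to enter the fit had lower folds than their parent genes, a difference that was not itself tested. The table held 25 rows named as pseudogenes of the family, of which 9 were tested. Of these 8 were called lower and 0 higher (14.9% and 15.7% of all genes tested), with a median log2 fold of -0.91 against -0.14 for their parent genes, and all 9 lay below their parent. At an unadjusted p under 0.05, and with DESeq2, 0 were called higher as well. Their summed level over all 25 rows was 673 and 728 CPM in the RFP+-labelled libraries and 375 and 400 CPM in the GFP+-labelled ones. Rpl10-ps3 (21.1, 17.7, 8.85 and 8.63 CPM) and Rpl13a-ps1 (15.9, 25.4, 12.3 and 7.45 CPM) passed the filter of 10 CPM only through the RFP+-labelled mean. Their calls therefore carry no weight for the direction. Not every untested row was lower: Rpl23a-ps3 had 4, 7, 13 and 13 counts. Rpl21-ps4 had 53.2, 49.9, 19.2 and 13.3 CPM, a log2 fold of -1.67 ± 0.17 (edgeR adjusted p = 1.9e-10), while its parent Rpl21 had a log2 fold of 0.14. Rps26-ps1 had 167, 189, 97.4 and 93.7 CPM, with a log2 fold of -0.91. Rpl13a-ps1 had -1.07, a call that was lost without RFP+-labelled library 2 (-0.68, edgeR adjusted p = 0.0984) and with DESeq2 (adjusted p = 0.0823). With these rows added to their parents, 8 members were called higher and 37 lower over all genes, against 9 and 37 without adding them. The share of all genes called in that fit is not given. A read from a parent mRNA and one from its pseudogene copy cannot be told apart where they share sequence.

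Other gene sets of the translation machinery were read from fixed lists, beside the same 15.7% called higher and 14.9% lower over all genes tested (11.9% and 12.1% with transcript length offsets). Of 15 other TOP mRNAs tested, 4 were called higher and 5 lower, with a median of -0.09 that turned to 0.017 with transcript length offsets (5 higher and 5 lower). Eef1a1, which delivers tRNA to the ribosome, had 1672, 1548, 2603 and 2146 CPM and a log2 fold of 0.55 ± 0.06 (edgeR adjusted p = 4.1e-10). Eif3f, a subunit of an initiation factor, had 415, 422, 339 and 324 CPM and -0.35 ± 0.06 (edgeR adjusted p = 1.6e-05). Of 10 nucleolar genes, which make and modify ribosomal RNA, 7 were called lower and 0 higher, with a median of -0.23, and with transcript length offsets 7 and 0 as well, though not all of the same genes. At an unadjusted p under 0.05 the number higher was also 0. The largest falls were those of Gar1 (-0.58), Rrp9 (-0.47), Fbl (-0.43) and Nhp2 (-0.40). The call of Rrp9 was lost under 5 settings, both length offsets among them (edgeR adjusted p up to 0.286). Of 74 mitochondrial ribosomal protein genes tested, 27 were called lower and 3 higher, with a median of -0.15, and 16 and 6 with transcript length offsets. Mrpl4 had the largest fall, with a log2 fold of -0.70 ± 0.12 (edgeR adjusted p = 1.9e-05). Among the 7 dedicated chaperones of ribosomal proteins, Heatr3 was called higher (0.32) and Aamp lower (-0.31), and both calls were lost under several settings. Of 10 genes of TOP and growth control, 1 was called higher and 2 lower, among them Eif4ebp1, the inhibitor of cap-dependent translation under mTOR control, with 198, 220, 149 and 157 CPM (log2 fold -0.46 ± 0.08, edgeR adjusted p = 9.7e-06).

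Single cells were then compared within each library, after each cell of at least 1000 counts was thinned at random to exactly 1000, which left 1233 to 1545 cells per library and removed differences in depth. The family took a mean of 17.5%, 17.9%, 16.1% and 16.5% of the thinned counts. The standard deviation between cells was 3.51, 3.58, 2.80 and 2.79 percentage points, where counting alone would give 1.16 to 1.21. The remaining spread was 3.29, 3.37, 2.54 and 2.53 points, a difference of -0.80 points between populations without overlap (exact permutation p = 0.333). As a percent of the mean it was 18.8%, 18.8%, 15.8% and 15.3%, so the spread was narrower in the GFP+-labelled libraries relative to the mean as well.

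The wider spread lay mostly in the upper tail. From the 5th to the 95th percentile cells ranged from 12.5% to 23.7% and 12.8% to 24.6% in the RFP+-labelled libraries, and from 11.7% to 20.8% and 12.3% to 21.3% in the GFP+-labelled ones. Cells at or above 25% numbered 54 (3.50%) and 63 (4.43%) in the RFP+-labelled libraries, against 11 (0.775%) and 10 (0.811%) in the GFP+-labelled ones. Cells below 12% were 3.56%, 2.18%, 5.92% and 3.73% of cells, with no gap of similar size. The single highest cell held 36.3%. The mean share differed little with depth: in 3 groups of cells of equal size, from shallow to deep, it was 17.6%, 17.4% and 17.7% in RFP+-labelled library 1, and 16.1%, 16.1% and 16.3% in GFP+-labelled library 1. Leaving out cells above the 99th percentile of counts, where doublets (2 cells in 1 droplet) would be most frequent, gave a remaining spread of 3.30, 3.36, 2.54 and 2.51 points. The share of doublets was not measured.

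**Figure D3:**
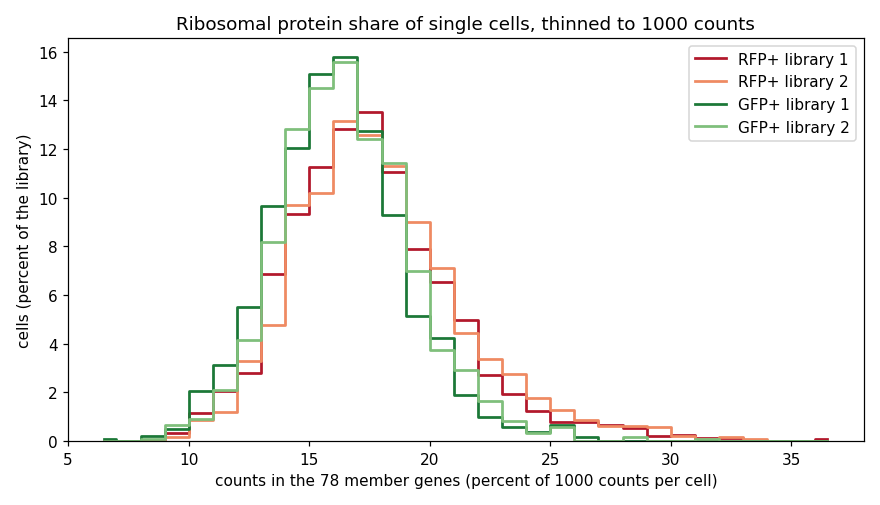
Percent of each library's cells (y axis) by the percent of their 1000 thinned counts that fell in the 78 member genes (x axis), 1 line per library. The RFP+-labelled libraries extend further to the right, with 3.50% and 4.43% of cells at or above 25%, against 0.775% and 0.811% in the GFP+-labelled ones.

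Single members were less variable between cells than other genes of like abundance. The measure was the excess squared coefficient of variation: the variance beyond binomial counting, over the squared mean. Over 75 members with a mean of at least 0.2 counts per thinned cell its median was 0.0541, 0.0547, 0.0398 and 0.0351. Other genes between the 10th and 90th percentiles of the members' levels (67 to 82 per library) had medians of 0.0943, 0.0843, 0.0762 and 0.0745, and 70, 61, 66 and 62 of the 75 members lay below them. Rpl35a was the most variable member, at 0.393, 0.152, 0.140 and 0.188, with the first library far above the others. Rps27l (median over libraries 0.0980), Rps12 (0.0902) and Rps27 (0.0849) came next, so both genes of the Rps27 pair were among the 4 most variable. The least variable were Rpl28 (-0.0354, at or below counting noise), Rps6 (0.0149), Rpl21 (0.0153) and Rpl34 (0.0195). Of these extremes, Rpl35a (0.37 to 0.57 counts per thinned cell), Rpl28 (0.50 to 0.67) and Rpl34 (0.49 to 0.75) lay below the 10th percentile of the members' levels in every library. The value of Rpl34 ranged from 0.0040 to 0.0767 between libraries. No error was computed for these estimates, so the ranks of such low members are uncertain. The ranking was moderately shared between libraries of a population, with a Spearman's rho across 75 members of 0.54 for RFP+ and 0.28 for GFP+, where the points share library and depth.

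Members varied together. The covariance of 2 members across cells was taken over the product of their means and corrected for the negative covariance that counting at a fixed depth gives. It had a median of 0.0331, 0.0340, 0.0239 and 0.0226 over 2775 pairs, and 95.1%, 95.1%, 91.1% and 89.0% of pairs were above 0. Pairs of a member and another gene had medians between -0.0044 and -0.0030. The shares of all genes in a cell still sum to a fixed total, and the part of this constraint in these values was not removed. Summed small subunit counts and summed large subunit counts had a correlation across cells of 0.75, 0.76, 0.65 and 0.65, and of 0.98 to 1.01 once counting noise was removed. A part of the variation of 1 subunit that was uncorrelated with the other was not detectable at this depth. The 2 totals did not vary by equal amounts, however. The excess squared coefficient of variation was 0.0374, 0.0403, 0.0278 and 0.0262 for the small subunit total, against 0.0340, 0.0315, 0.0231 and 0.0214 for the large. The small subunit total was also the more variable in every library at 700 and 1500 counts. This difference was not tested.

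Coding length ordered the members by this covariation. Across 75 members, Spearman's rho between coding length and covariance with the rest of the family was -0.65, -0.72, -0.64 and -0.43. The 25 shortest (75 to 396 bases) had median covariances of 0.0420, 0.0430, 0.0305 and 0.0255, and the 25 longest (576 to 1257 bases) 0.0266, 0.0259, 0.0182 and 0.0193. Rpl4, the longest member at 1257 bases, had 0.0090, -0.0024, 0.0044 and 0.0071, values near 0. Rpl3, of 1209 bases, came next from the bottom with 0.0119, 0.0160, 0.0114 and 0.0160. Rps12 had the highest median, with 0.0502, 0.0583, 0.0404 and 0.0376, followed by Rpl34, Rps15a and Rpl35. The points share library, depth and cells, and the relation is a description.

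**Figure D4:**
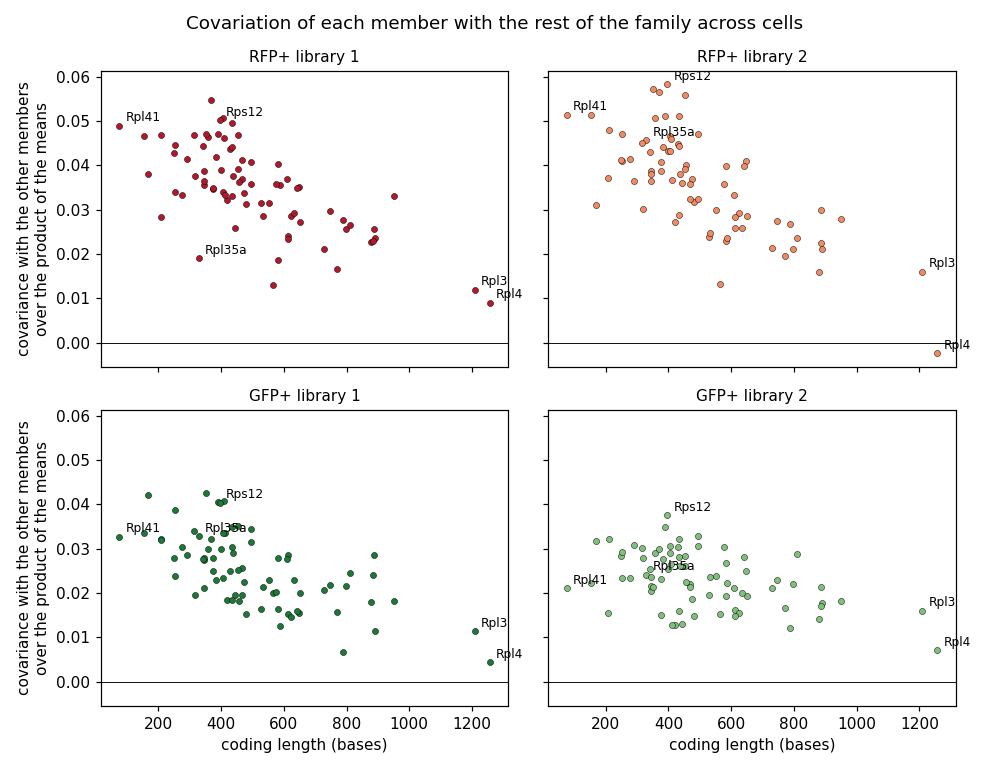
Covariance of each of 75 members with the other members across thinned cells, over the product of the means (y axis), against coding length in bases (x axis), 1 panel per library and 1 point per gene. The points fall from left to right in all 4 libraries (Spearman's rho -0.65, -0.72, -0.64 and -0.43), with Rpl4 at the lower right.

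Genes outside the family followed the same order of length. Cells of each library were divided into low, middle and high share groups of about equal size by their family share, and counts of other genes per 1000 counts outside the family were compared between the high and the low share group (502 and 522 cells in RFP+-labelled library 1). The 288 genes with coding sequences up to 300 bases were higher in the high share group by a ratio of 1.41, 1.41, 1.30 and 1.27. The 1524 genes over 300 to 600 bases had ratios of 1.21, 1.22, 1.17 and 1.16, and the 3873 genes over 600 to 1200 bases 1.05, 1.05, 1.05 and 1.04. The 4884 genes over 1200 to 2400 bases had 0.881, 0.883, 0.926 and 0.924, and the 2818 genes over 2400 bases 0.732, 0.718, 0.778 and 0.788. Short mRNAs outside the family thus took more of the counts in cells with a high share of ribosomal protein counts, and the ratios were further from 1 in both RFP+-labelled libraries at either end of the length range. The share groups themselves also lay further apart there, with mean family shares of 14.1% and 21.4% (low and high) and 14.4% and 21.9%, against 13.3% and 19.2% and 13.7% and 19.6% in the GFP+-labelled ones. Mitochondrial ribosomal protein genes, whose coding sequences are short as well (median 582 bases), had ratios of 1.20 to 1.28. Other TOP mRNAs (median 1119 bases) had 1.18, 1.17, 1.15 and 1.23, nucleolar genes (median 1379 bases) 1.07, 1.06, 1.10 and 1.07, and mitotic genes (median 1653 bases) 0.772, 0.752, 0.775 and 0.742. These lists departed from the order of length. In every library other TOP mRNAs and nucleolar genes lay above, and mitotic genes below, the ratio of the length group that holds their median. Mitochondrially encoded genes were at 0.666, 0.691, 0.911 and 0.883, lower in the high share group in every library. Cells were also divided by their mitochondrially encoded counts over their counts outside the family. The low and high groups then had mean family shares of 17.7% and 16.8% and of 17.8% and 17.3% in the RFP+-labelled libraries. In the GFP+-labelled ones they were 15.8% and 16.1% and 16.1% and 16.7%, where the order turned. A high family share lowers that denominator and so raises the measure, and the turn cannot be told apart from this. The covariance of mitochondrially encoded with family counts, over the product of the means, was negative in every library (-0.0393, -0.0361, -0.0114 and -0.0092). The part of length, RNA quality or capture in the share was not tested.

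**Figure D5:**
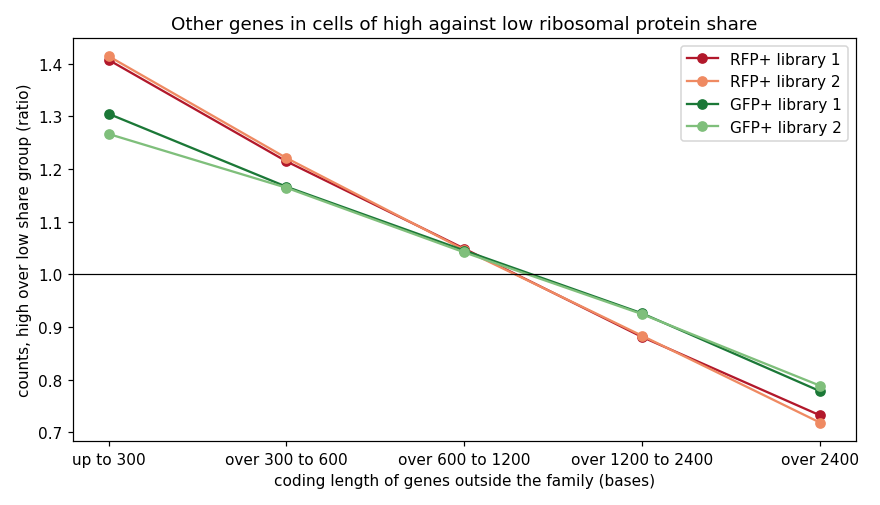
Ratio of counts of genes outside the family in cells of the high over the low family share group (y axis), by coding length of those genes in bases (x axis), 1 line per library. The ratio falls from 1.27 to 1.41 for genes up to 300 bases to 0.718 to 0.788 for genes over 2400 bases.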

How the data were processed

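The authors deposited 1 table of whole-number counts, not normalized, with genes in rows and cells in columns. The genome build was GRCm38, per the submitters' processing notes. Aligner, counter, use of strand and any collapsing of molecular identifiers: not given in the sources used here. Lanes of a library were pooled in the deposited counts. The cells kept (7390 of 7400) had 500 counts or more, of which less than 20% were mitochondrially encoded. No doublet caller was run. Summed counts per library entered edgeR 4.0.16 (R 4.3.3, glmQLFit and glmQLFTest, TMM factors, genes of at least 10 CPM in a population and 20 counts in all), with Benjamini-Hochberg adjustment over 7595 genes. The SE is the log2 fold over the square root of F. The family fit used the members' summed counts as library size. Alternatives were DESeq2 1.42.0, size factors, filters, thinning, left-out libraries, pseudogene rows added to their parents, and offsets for length and GC from GENCODE M21 (94.0% of tested genes had a coding length). The offsets were smooth trends of the population fit's own log2 folds on length and GC, fitted over tested genes with members included. On simulated counts with 7468 genes tested, the population fit recovered 46 of 50 genes changed 2-fold, 32 of 50 changed 1.5-fold and 8 of 50 changed 1.2-fold, with 5 false calls. Depths of 2550319 to 3081009 counts per library set the counting error; PCR reads need not be independent molecules.

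Genes were named by rule: the 8 highest and 8 lowest called members relative to the family with at least 50 CPM, the extremes of level and of spread between cells, paralogue pairs, anchors (stalk, 5S particle, Rps6, Rpsa, Rps27a), and at most 4 genes per list. Some genes chosen by this rule are not reported here. Where extremes of level were compared, levels per kb were used, with CPM given beside them. Members and lists were chosen with earlier results of these data known.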

Additional observations from a re-analysis of the deposited data

How the results depend on the processing

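Over all genes, transcript length and GC offsets gave 24 members higher, 15 lower and a median log2 fold of 0.045 in place of -0.12. Coding length and GC offsets, chosen after seeing the data, gave 20, 21 and -0.017. DESeq2 called 3 higher and 29 lower. Leaving out 1 library gave medians of -0.16 to -0.084, and the direction stayed. Relative to the family, DESeq2 called 14 higher and 9 lower, and the fit without a filter 2 and 0 (on 15875 genes, with the share of all genes called not given). Of the 8 highest named members 7, and of the 8 lowest 4 (Rplp0, Rps19, Rpl7a and Rpl32), were called in every setting except that without a filter. The difference in small to large subunit balance was -0.088 as a mean of log2 CPM over members, in place of -0.033. On thinned cells the difference in the Rps27l to Rps27 ratio was -0.10. Cells thinned to 700 and 1500 counts gave differences in spread of the share of -0.70 and -0.85 points and in the members' median excess squared coefficient of variation of -0.0120 and -0.0195, and 700 counts gave a difference in median covariance of -0.00795 (main -0.80, -0.0170 and -0.0103).

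Single genes that turned over all genes were Rpl28 (from -0.27 to 0.19 when 1 library was left out, above 0 without the second RFP+-labelled library, 0.19, or without the first GFP+-labelled library, 0.17), Rplp1 (0.090 and 0.065 with transcript and coding length offsets), Rplp2 (0.17 and 0.18), Rps21 (0.094 with transcript length) and Rpsa (0.023 with coding length). The causes were not tested. No paired analysis was possible because the count table pools lanes and the numbers in the labels of the libraries of each population share fewer than 2 values. In the simulation, whose changed genes were drawn at random from all genes tested, folds of 1.2 were mostly missed (8 of 50 recovered). Members were nonetheless called at folds of about that size. Rpl5 had a log2 fold of -0.27 over all genes (edgeR adjusted p = 3.3e-05) and Rpl7 one of -0.25 (edgeR adjusted p = 8.6e-05). With 2 libraries per population, members that were not called are not shown to be unchanged.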
